A study of Mus musculus with 6 samples.

Results

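The plasminogen activator system was followed here as 6 genes, Plau, Plat, Plg, Plaur, Serpine2 and Serpinb2, out of 22910 genes that the array could name. A gene belonged when a transcript probe carried a RefSeq accession of that gene, and all 6 genes were found, through 7 probes. The measurements came from 2D-MAOs, mouse airway epithelial organoids of the C57BL/6 strain grown as a flat culture. TGF-β1 was added to 3 cultures on day 3, 3 control cultures had none, and all were collected on day 7. Medium of both groups lacked noggin, a BMP antagonist, and A83-01, an inhibitor of TGF-β type I receptors. RNA of each culture was read on 1 Agilent array, and each value below is a log2 signal after quantile normalization, which compares 1 probe between arrays and not 1 gene with another.

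Plasmin is a serine protease that dissolves fibrin and cleaves matrix proteins and growth factor precursors. It is cut from its zymogen plasminogen, a product mainly of the liver, by urokinase at the cell surface or by tissue plasminogen activator on fibrin. Urokinase is held at the membrane by its receptor uPAR, and serpins end the reaction by trapping the proteases in covalent complexes. In lung the system is known for clearing fibrin from air spaces after injury, and TGF-β is a known regulator of several of its genes.

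The cultures carried the transcripts of an airway epithelium. Of 13 airway epithelial markers, 11 were well above background on all 6 arrays, and Muc5ac and Muc5b on none. The summed signal of the epithelial markers was 227718 to 254662 on control arrays and 264717 to 396996 on TGF-β1 arrays. Such a sum follows its brightest probes, and the markers did not all move alike. Of the 11 tested, 9 had higher and 2 lower means with TGF-β1. Foxj1, the 1 called, was higher by 1.47 on the log2 scale (adjusted p = 0.00238, limma). Scgb1a1 was lower by 2.27 without passing (adjusted p = 0.158, limma). Of 7 fibroblast markers, 3 were well above background on all arrays and Pdgfrb and Lum on none, and their summed signal was 574 to 645 in controls and 705 to 2707 with TGF-β1. The remaining 2, the collagen genes Col1a1 and Col1a2, were well above background on 0 control and 3 TGF-β1 arrays and rose by at least 2.59-fold and 2.38-fold (adjusted p = 0.00910 and 0.0162, limma), having passed the filter through the TGF-β1 group alone. Thy1 gave 4.14, 4.67 and 4.23 in controls and 8.19, 7.65 and 4.60 with TGF-β1. Dcn gave 8.98, 8.81 and 8.96 in controls and 11.10, 9.68 and 8.98 with TGF-β1. Both were thus highest in TGF-β1 replicates 1 and 2, and neither passed (adjusted p = 0.176 and 0.273, limma). Pdgfra differed by 0.21 without passing (adjusted p = 0.484, limma). Of 7 leukocyte markers, Cd68, Csf1r and Cd3e were well above background on all 6 arrays, with a summed signal of the list of 6343 to 8956 in controls and 8479 to 10076 with TGF-β1. Cd68 did not overlap between groups, as 26.4% of all genes tested did not. It was higher by 0.90 on the log2 scale without passing (adjusted p = 0.147, limma). Of 7 endothelial markers, Pecam1 was well above background on all 6 arrays. The part of such cells in the results below was not tested, and in bulk RNA fewer cells of a type cannot be told apart from less RNA per cell. Ptprc, Adgre1 and Lyz2 of the leukocyte markers, Cdh5, Kdr, Tek, Emcn and Cldn5 of the endothelial markers, and Alb, Apoa1, Ttr and Ahsg of the hepatocyte markers reached that mark on 0 of the 6 arrays. TGF-β1 replicate 3 stood apart from its group. Over all genes tested its Euclidean distance to the other TGF-β1 arrays was 61.1 and 62.3, where replicates 1 and 2 lay 32.3 apart, and its distance to the controls was 54.4 to 60.9. Replicate 3 of each group also lay in row 2 of the slide, so each member below is given with and without that array, and other genes where a call or the sign turned on it.

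Promoter sequences of 3 of the 6 genes were in the tables used here, and all 3 are shown, as RefSeq windows of the mouse build GRCm38.p6, from 250 bases before to 50 bases after the start of transcription. Among them are Serpine2, which had the largest mean difference of the members, and Plaur, whose groups did not overlap. Capitals mark 3 kinds of match, searched on both strands. The AP-1 motif was spelled TGACTCA. A short motif of SMAD proteins, the transcription factors downstream of TGF-β receptors, was spelled CAGAC. The motif of the TATA box was spelled TATAAA. No match overlapped another in these windows. The Serpine2 window is chr1:79858616-79858915 on the minus strand, the Serpinb2 window chr1:107511173-107511472 on the plus strand, and the Plaur window chr7:24462233-24462532 on the plus strand.
Serpine2: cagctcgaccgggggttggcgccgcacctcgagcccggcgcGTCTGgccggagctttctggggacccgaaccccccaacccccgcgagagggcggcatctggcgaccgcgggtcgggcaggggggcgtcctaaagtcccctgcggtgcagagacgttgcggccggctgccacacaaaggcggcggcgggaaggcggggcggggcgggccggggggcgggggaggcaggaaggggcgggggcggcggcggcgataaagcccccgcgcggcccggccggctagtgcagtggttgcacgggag
Serpinb2: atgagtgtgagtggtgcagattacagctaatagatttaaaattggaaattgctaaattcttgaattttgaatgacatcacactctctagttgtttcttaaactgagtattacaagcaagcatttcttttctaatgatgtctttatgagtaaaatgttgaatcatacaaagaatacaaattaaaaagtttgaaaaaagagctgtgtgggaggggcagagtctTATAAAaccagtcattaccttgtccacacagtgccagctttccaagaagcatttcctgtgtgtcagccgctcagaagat
Plaur: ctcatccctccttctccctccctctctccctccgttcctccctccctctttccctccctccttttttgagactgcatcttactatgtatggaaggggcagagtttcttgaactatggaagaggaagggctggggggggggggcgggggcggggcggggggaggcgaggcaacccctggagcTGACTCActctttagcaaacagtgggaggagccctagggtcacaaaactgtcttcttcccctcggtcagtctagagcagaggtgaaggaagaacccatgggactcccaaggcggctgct
The windows differed in base composition. The share of G and C was 77.7% for Serpine2, 35.3% for Serpinb2 and 59.3% for Plaur, beside a median of 53.0% over 32544 windows. Plaur held 1 AP-1 match, whose first base lay at position -69 from the start, and 5.19% of all windows held one. Serpinb2 held a TATA match beginning at -29, as 13.6% of windows held one anywhere. A second RefSeq start of Serpinb2, whose window chr1:107511260-107511559 overlaps the one shown, puts the same match at -116. Serpine2 held 1 SMAD match at -209, and 49.5% of windows held such a match. A match is a stretch of letters and no evidence of binding.

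No member was called with all 6 arrays. Plau and Serpine2 had the largest differences, with means 2.13-fold and 2.45-fold higher after TGF-β1, and both were high in TGF-β1 replicates 1 and 2 while replicate 3 lay among the controls. Plaur varied least within the TGF-β1 group and its mean was 1.21-fold lower, Serpinb2 and Plat differed by less than their spread, and Plg stayed at background on every array. Of the 5 members tested with limma, 0 had a Benjamini-Hochberg adjusted p under 0.05, 0 had an unadjusted p under 0.05, and the unadjusted test named in the study's methods passed 1, Plaur. Over all 14345 genes tested, 1.63% were called higher and 0.404% were called lower. Of the same genes, 22.2% had an unadjusted p under 0.05 with limma. The unadjusted test named in the study's methods passed 1305 of them as higher and 1147 as lower. Without TGF-β1 replicate 3, 2 members, Plau and Serpine2, were called higher, beside 9.08% of all genes.

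**Figure D1:**
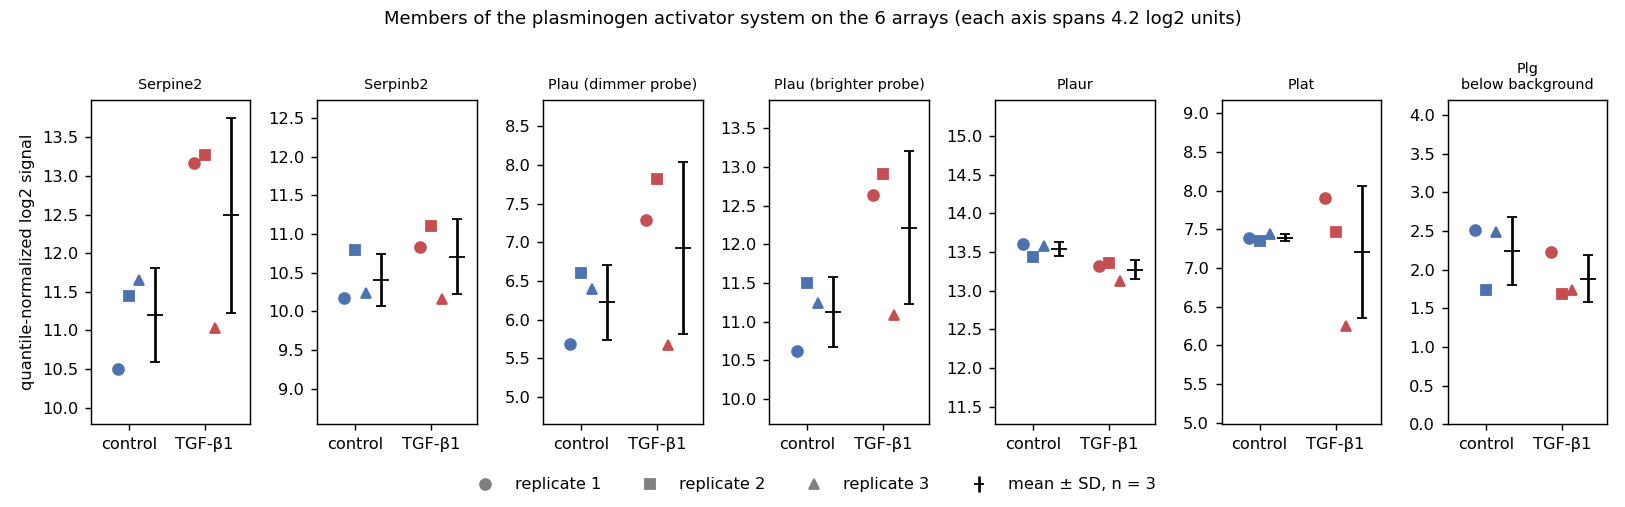
Quantile-normalized log2 signal of the 7 probes of the 6 genes on each array, with control arrays in blue and TGF-β1 arrays in red, shapes for replicates, and bars for the mean ± SD (n = 3). TGF-β1 replicates 1 and 2 of Serpine2 and of both Plau probes lay above every control array, replicate 3 did not, and the 3 TGF-β1 arrays of Plaur lay below the 3 controls.

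Plau encodes urokinase, the activator that works at the cell surface. The control arrays gave 10.63, 11.50 and 11.24 in replicates 1, 2 and 3, and the TGF-β1 arrays gave 12.65, 12.92 and 11.09. TGF-β1 replicates 1 and 2 were above every control array, and replicate 3 was inside the control range, so the groups overlapped. The means were 11.12 ± 0.45 and 12.22 ± 0.99 (SD, n = 3), a log2 difference of 1.09 (95% interval -0.07 to 2.25). This difference did not pass (adjusted p = 0.245, limma). The exact two-sided permutation test gave p = 0.3, where 3 arrays against 3 allow no p below 0.1. Without TGF-β1 replicate 3 the log2 difference was 1.66, 3.15-fold (interval 1.00 to 2.31, adjusted p = 0.0177, limma). A second, dimmer Plau probe showed the same split of the TGF-β1 arrays. It gave 5.68, 6.60 and 6.40 on control arrays and 7.28, 7.81 and 5.67 on TGF-β1 arrays, with replicates 1 and 2 again above all controls and replicate 3 just below the lowest one. Its spots were 3.30 to 10.1 times their local background, against 43.6 to 179 times for the brighter probe, and its log2 difference was 0.70 (adjusted p = 0.415 among probes, limma).

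Plat encodes tissue plasminogen activator, the activator that works on fibrin. The control arrays lay close together at 7.39, 7.35 and 7.44, and the TGF-β1 arrays spread over 7.90, 7.47 and 6.25. Replicates 1 and 2 with TGF-β1 were above all controls and replicate 3 was far below them, which made the SD 0.86 with TGF-β1 and 0.04 in controls (n = 3). The log2 difference was -0.19 (95% interval -1.11 to 0.74, adjusted p = 0.794, limma). Its sign turned to 0.29 without TGF-β1 replicate 3 and did not pass there either (adjusted p = 0.219, limma). The direction of Plat was therefore set by 1 array.

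Plg encodes plasminogen, the zymogen that both activators cut. Its probe failed the mark for spots well above background on all 6 arrays, with log2 signals of 2.51, 1.73 and 2.48 in controls and 2.23, 1.68 and 1.73 with TGF-β1. No difference was tested, since both groups were at background. The hepatocyte markers, which accompany Plg in liver, were at background too.

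Plaur encodes uPAR, the receptor that holds urokinase at the membrane. The control arrays gave 13.61, 13.44 and 13.58 and the TGF-β1 arrays gave 13.32, 13.36 and 13.13. All 3 TGF-β1 arrays were below all 3 controls, which made Plaur the member whose groups did not overlap, as 26.4% of all genes tested also did not. The log2 difference was -0.27 (95% interval -0.54 to 0.0017, adjusted p = 0.228, limma), a 1.21-fold lower mean, and the exact permutation test gave p = 0.1, the smallest it can give. Without TGF-β1 replicate 3 it was -0.20 (adjusted p = 0.243, limma), and with signals scaled to the 75th percentile of each array it was -0.46 (adjusted p = 0.0875, limma). Plaur was the tightest of the members with TGF-β1, at an SD of 0.12 (n = 3).

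Serpine2 encodes protease nexin-1, a serpin that inhibits urokinase, thrombin and plasmin. The control arrays gave 10.50, 11.44 and 11.65, and the TGF-β1 arrays gave 13.17, 13.27 and 11.04. Replicates 1 and 2 with TGF-β1 were above every control and replicate 3 was between control replicates 1 and 2, so the groups overlapped. The means were 11.20 ± 0.61 and 12.49 ± 1.26 (SD, n = 3), a log2 difference of 1.29 (95% interval -0.20 to 2.78, adjusted p = 0.273, limma), and the exact permutation test gave p = 0.3. Without TGF-β1 replicate 3 the log2 difference was 2.02, 4.05-fold (interval 1.19 to 2.85, adjusted p = 0.0195, limma). Spots were 59.7 to 114 times their local background in controls, 335 and 311 times in TGF-β1 replicates 1 and 2, and 67.8 times in replicate 3.

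Serpinb2 encodes PAI-2, a clade B serpin that inhibits urokinase. The control arrays gave 10.18, 10.79 and 10.24 and the TGF-β1 arrays gave 10.84, 11.11 and 10.17. Replicates 1 and 2 with TGF-β1 were above all controls by a small margin, and replicate 3 was below all of them. The log2 difference was 0.30 (95% interval -0.36 to 0.96, adjusted p = 0.533, limma). Without TGF-β1 replicate 3 it was 0.57, 1.48-fold (adjusted p = 0.119, limma).

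**Figure D2:**
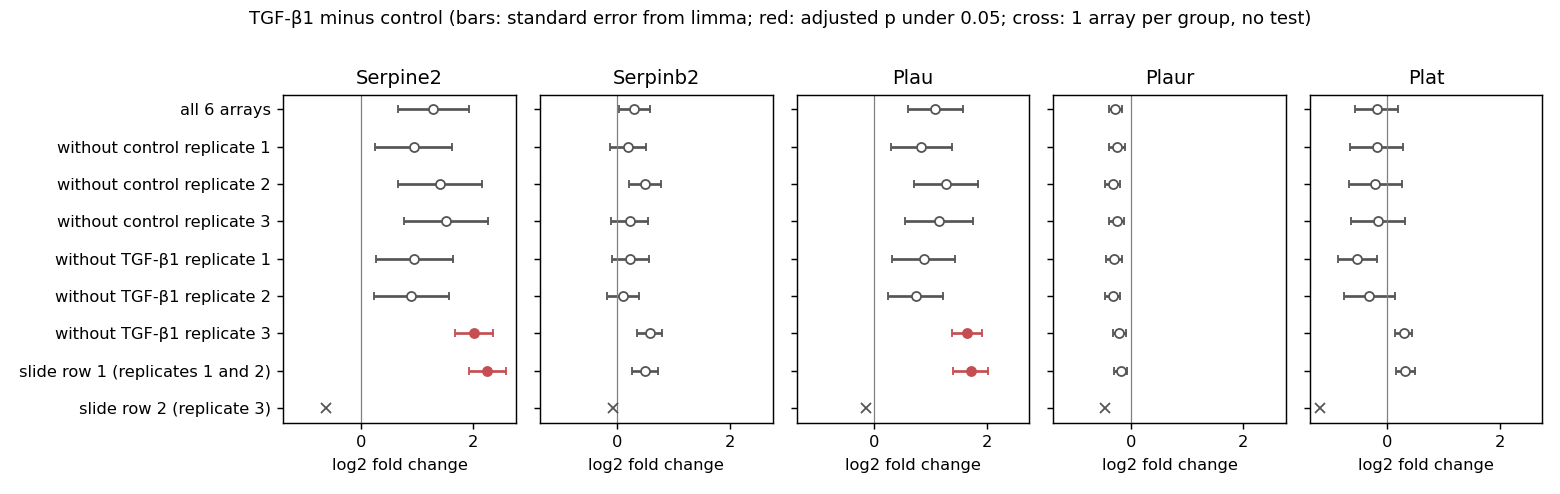
Log2 difference, TGF-β1 minus control, of the 5 tested genes with all arrays, with each array left out and within each slide row, with bars for the standard error of limma and red for an adjusted p under 0.05. Serpine2 and Plau were red without TGF-β1 replicate 3 and within row 1, and their row 2 crosses, 1 array per group, lay at -0.62 and -0.15.

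Leaving out any of the other 5 arrays called no member. In the slide row that held replicates 1 and 2 of both groups, the log2 difference was 2.25 for Serpine2 (adjusted p = 0.0175, limma) and 1.72 for Plau (adjusted p = 0.0264, limma). In the other row, with 1 array per group and no test, it was -0.62 for Serpine2, -0.15 for Plau, -0.08 for Serpinb2, -0.45 for Plaur and -1.19 for Plat. The row and the third replicate cannot be told apart. Among the 1303 genes called higher without TGF-β1 replicate 3, that array was above all controls for 858, or 65.8%, and within the control range for 332, or 25.5%. Plau and Serpine2 were among the latter.

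The members were also set beside other genes by the shape of their signals over the 6 arrays, as the root mean square distance between log2 signals centred on each gene's mean. Among member pairs, Plau and Serpine2 were the closest at 0.26, and Serpine2 and Plaur the farthest at 1.09. The 3 closest tested genes were Cox6b2, Tmprss9 and Cercam for Plau, at 0.09 to 0.13. They were Rab7b, Dbn1 and Dpysl3 for Serpine2, at 0.17 to 0.20. They were Nrn1l, B4galt2 and Zeb1 for Serpinb2 (0.05 to 0.07), and Plk4, Birc5 and Ric3 for Plat (0.10 to 0.14). Near Plaur lay Hapln3 at 0.04 and Gpr137b-ps at 0.06. A short distance is easier to reach for a gene that varies little, as Plaur did, and 6 arrays of 2 groups are few. Zeb1 was well above background on 4 of the 6 arrays and Cercam on 5, so part of their shape is background signal. The other genes named here were so on all 6.

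Around the members, 62 genes of the wider plasmin system were on the array, in 7 lists, and 43 were tested. Of these, 6 were called higher and 1 lower, beside 1.63% and 0.404% of all genes, and 17 had an unadjusted p under 0.05, beside 22.2% of all genes. The groups did not overlap for 15, or 34.9%, beside 26.4% of all genes. Serpina5, among the 6, passed the filter through the TGF-β1 group alone, and of the 42 genes detected in both groups 5 were called higher. Their median log2 difference was 0.10, beside -0.03 over all genes tested. Without TGF-β1 replicate 3, 10 were called higher, beside 9.08% of all genes, and 2 lower, beside 6.27%, and these 12 held all 7 of the calls made with 6 arrays. Their median was then 0.17, beside -0.04 over all genes, and the groups of 30, or 69.8%, did not overlap, beside 55.3% of all genes. The lists were chosen with earlier results of these data known, so these shares describe the lists and are no test of the wider system.

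The lists nearest to the members' own reaction held receptors, activating enzymes and inhibitors. Of 5 tested partners and clearance receptors of uPAR, 1 rose, Lrp1, an endocytic receptor that takes up complexes of urokinase with its inhibitors. Its control arrays gave 9.61, 9.52 and 10.18 and its TGF-β1 arrays gave 11.48, 11.55 and 10.90, with no overlap and replicate 3 the lowest of its group. The log2 difference was 1.54 ± 0.24 (SE, adjusted p = 0.0315, limma). Igf2r (0.50), Itgam (0.43) and Lrpap1 (0.13) did not pass. All 4 tested enzymes that activate zymogens of this system had higher means with TGF-β1 and 0 were called, led by the membrane proteases St14, or matriptase (0.73, adjusted p = 0.127, limma), and Hpn, or hepsin (0.61, adjusted p = 0.192, limma). Klkb1 and Ctsb differed by 0.06 and 0.03, and Klkb1 by -0.04 without TGF-β1 replicate 3. St14 and Hpn did not overlap between groups, as 26.4% of all genes tested did not. Both were called without TGF-β1 replicate 3 (adjusted p = 0.0175 and 0.0358, limma).

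Of 8 other inhibitors tested, 2 rose. Serpina5, the protein C inhibitor, which also inhibits urokinase, was well above background on 0 control arrays and on all 3 TGF-β1 arrays. Its TGF-β1 arrays gave 4.43, 4.44 and 5.01 and its mean was at least 1.57-fold higher (adjusted p = 0.0266, limma, in a gene that had to differ to pass the filter), the control side being taken as the level at which probes of each array become well above background. With the background modelled by normexp in limma, the fitted log2 difference of Serpina5 was 0.38 and did not pass (adjusted p = 0.0735, limma). Serpini1, neuroserpin, an inhibitor of tissue plasminogen activator, gave 5.44, 5.72 and 6.07 in controls and 7.26, 7.31 and 6.71 with TGF-β1, with no overlap. Its log2 difference was 1.35 ± 0.22 (SE, adjusted p = 0.0391, limma), and 0.70 with normexp background (adjusted p = 0.0405, limma). Serpinf2, the plasmin inhibitor α2-antiplasmin, differed by -0.71 (adjusted p = 0.189, limma) and was called lower without TGF-β1 replicate 3 (adjusted p = 0.0289, limma), and Spint1 differed by 0.35 without passing.

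Of 4 tested substrates and receptors of fibrin formation and growth factor activation, 1 rose, F3, tissue factor, which starts coagulation. F3 gave 16.38, 16.26 and 16.34 in controls and 17.07, 17.04 and 16.85 with TGF-β1. Its 3 TGF-β1 arrays were all above its controls, at a log2 difference of 0.66 ± 0.11 (SE, adjusted p = 0.0388, limma), and with signals scaled to the 75th percentile it was 0.47 and did not pass (adjusted p = 0.0915, limma). Mst1, a growth factor precursor, differed by 0.73 without passing (adjusted p = 0.296, limma) and by 1.13 without TGF-β1 replicate 3, where it was called (adjusted p = 0.0376, limma). The thrombin receptor F2r (0.39) did not pass, and neither did F2rl1 (0.10), which was -0.09 without that array. The fibrinogen chains Fga, Fgb and Fgg and prothrombin, F2, were at background on all 6 arrays. Of the 4 plasminogen-binding proteins, 0 were called. S100a10 differed by -0.37 and Eno1 by -0.30 without passing (adjusted p = 0.152 and 0.220, limma). Both were lower on all TGF-β1 arrays than on any control array, where 26.4% of all genes tested did not overlap either. Anxa2 and Plgrkt differed by 0.03 and -0.03 (0.17 and 0.01 without TGF-β1 replicate 3).

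The families of Plaur and Serpinb2 were described in the same way. Of 9 Ly6/uPAR-domain proteins, which share the fold of uPAR, 2 rose and 1 fell. Ly6d gave 7.82, 7.83 and 8.07 in controls and 10.63, 9.75 and 10.31 with TGF-β1, a log2 difference of 2.32 ± 0.23 (SE, adjusted p = 0.00745, limma). Lypd3, also called C4.4A, rose by 0.80 (adjusted p = 0.0464, limma), and Lypd6 fell by 1.53 (adjusted p = 0.0232, limma). With normexp background these were 0.52 and -0.90, and the mean of its probes gave -0.89 for Lypd6, all called. None of these 3 overlapped between groups, and Ly6d was the only one of the 7 called genes that passed with each of the 6 arrays left out. The other 6 each passed with 1 or 2 of the 6 arrays left out, in every case with TGF-β1 replicate 3, and reached an adjusted p of 0.102 to 0.177 at the least favourable array (limma). Lypd2 differed by -0.46 without passing. Of 9 clade B serpins other than Serpinb2, 0 were called, 0 had an unadjusted p under 0.05, and the groups of all 9 overlapped. Serpinb7 gave 6.90, 6.91 and 2.50 with TGF-β1 and Serpinb11 gave 7.20, 7.05 and 4.01, and in both replicate 3 was the array that was not well above background. Without it Serpinb7 differed by -0.25 in place of -1.72, and Serpinb11 by 0.34 in place of -0.70. Serpinb1a differed by 0.60 (0.98 without TGF-β1 replicate 3, adjusted p = 0.0226, limma) and Serpinb10 by 0.46 (0.86 without it, adjusted p = 0.0656, limma).

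**Figure D3:**
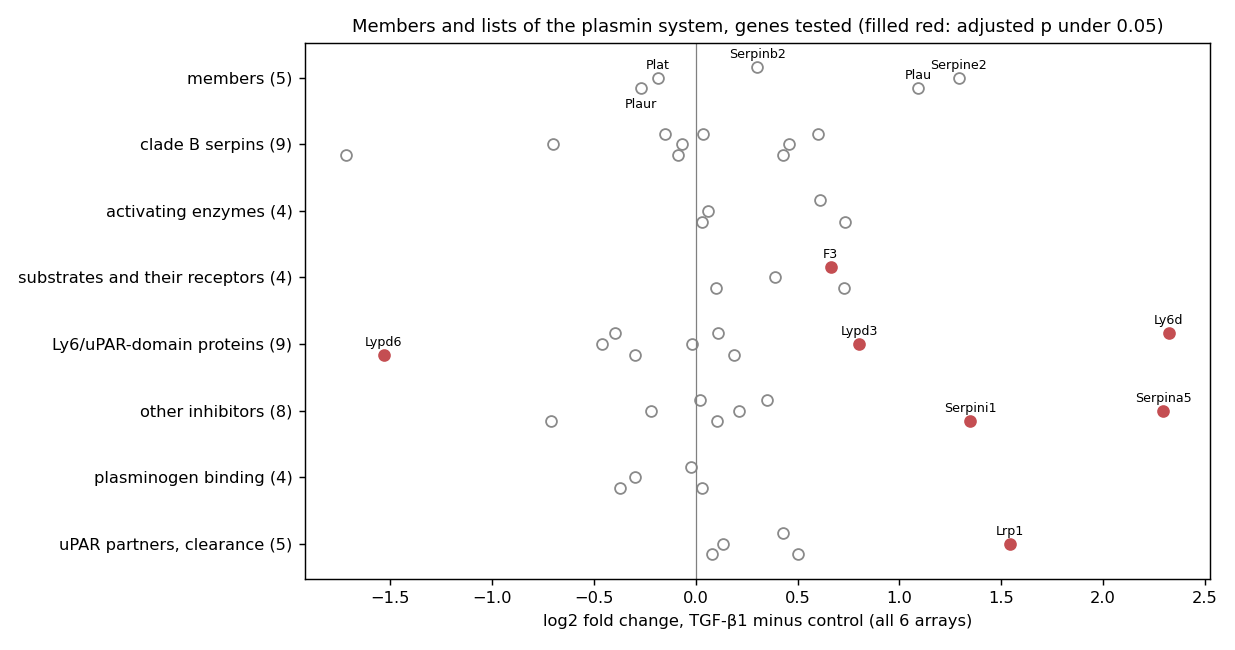
Log2 difference, TGF-β1 minus control, of the 5 tested members and of the 43 tested genes of 7 plasmin system lists, with the number tested in brackets and filled red points for an adjusted p under 0.05. The 7 red points were Lrp1, Serpina5, Serpini1, F3, Lypd3 and Ly6d on the higher side and Lypd6 on the lower, no member was red, and the fitted value of Serpina5 rests on control arrays below background.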

How the data were processed

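RNA of 6 cultures was read with 1 dye on 1 slide. The files deposited by the authors hold the intensity of each spot on a linear scale, background-subtracted by Agilent Feature Extraction 11.0.1.1, with no normalization between arrays, beside the median intensity of spot and local background and a yes-or-no call on whether a spot exceeded its background clearly (well above background). Control and marked spots were left out, which kept 56599 probes. The accessions of 32991 probes matched a gene in RefSeq of GRCm38.p6. The array was designed on another build, so its probes are given no positions.

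From the deposited intensities, log2 signals were normalized by quantiles. Probes well above background on at least 3 arrays were kept (32460), and the probe with the highest mean signal stood for a gene. Groups were compared with limma 3.58.1 in R 4.3.3, with Benjamini-Hochberg adjustment over 14345 genes, and a gene was called at an adjusted p under 0.05. Exact permutation tests were two-sided. The methods name an unpaired t-test, called the methods' t-test. The study calls its cultures biological replicates, and the number of arrays limits the precision. No concentration of TGF-β1 was given with the array methods.

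The members and lists were chosen with earlier results of these data known. The text names all members, the list genes called, the 4 genes of each list with the largest difference and the 3 genes nearest to each member. A single gene named by this rule is not reported here. Other genes named were chosen after their values were seen. The labels do not say whether equal replicate numbers pair the samples, and the groups were compared as unpaired. Deviations from the group means correlated at -0.01, 0.33 and -0.05 between arrays of the same number. Between arrays of different numbers they correlated at -0.37 to 0.25. With 3 arrays a group these values cannot settle whether the samples were paired. The pipeline was tested on simulated data, with independent noise that for each gene was equally wide on all arrays. That simulation held no array standing apart, and its planted differences were larger than those of the members with all 6 arrays. It therefore does not bear on the calls of the members. The alternatives are given in the closing section. A planned background alternative used the median brightness, as the mean was not in the files used.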

Additional observations from a re-analysis of the deposited data

How the results depend on the processing

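With 3 arrays a group, the results depended on TGF-β1 replicate 3. Leaving out each array in turn gave log2 differences of 0.90 to 2.02 for Serpine2, 0.74 to 1.66 for Plau and -0.53 to 0.29 for Plat, counts of 49 to 1303 genes called higher and 7 to 900 lower, and 1 to 10 plasmin list genes higher and 0 to 2 lower. The highest of each came without TGF-β1 replicate 3. With array weights, Serpine2 was 2.13 (adjusted p = 0.0121, limma), Plau 1.67 (adjusted p = 0.0130, limma) and Plat turned to 0.24, with 2408 and 2575 genes called higher and lower and 15 and 6 list genes. Within slide row 1, Serpine2 was 2.25, Plau 1.72 and Plat 0.32, with 1985 and 1857 genes and 14 and 3 list genes. Within slide row 2, with no test, Serpine2 was -0.62, Plau -0.15, Serpinb2 -0.08, Plaur -0.45 and Plat -1.19. The unadjusted methods' t-test gave Plaur at -0.27 (p = 0.0379, an approximation, where the exact permutation p is 0.1), 1305 and 1147 genes and 4 list genes lower. Adjusted, it called 7 and 2 genes and 0 list genes in either direction. Without the filter, 59 and 15 genes were called and 0 list genes in either direction. Trend and robust fitting called 399 and 108. With slide row as a block 105 genes and 2 list genes were called lower, and the 2-fold threshold left 27 lower. With the replicate number as a block, 86 and 18 genes and 1 and 0 list genes were called, and no member passed (adjusted p = 0.252 to 0.761, limma). The cause of these changes was not tested. Under all other alternatives the 5 tested members kept their direction and were not called. Serpinb2 passed under no alternative (adjusted p = 0.0878 to 0.894, limma). Its log2 difference was 0.10 without TGF-β1 replicate 2, 0.57 without TGF-β1 replicate 3 and 0.52 with array weights. Plg, at background on every array, could not be compared.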
